A study of Homo sapiens with 9 samples.

Results

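A set of 36 protein-coding genes was highest on Day21 of serotonin neuron differentiation, with every Day21 library at least 3 times every library before and after it. The data are RNA sequencing profiles of WA09, a human embryonic stem cell line also called H9, in which every library carried the TPH2-EGFP knock-in, a green fluorescent reporter at the gene of the enzyme that starts serotonin synthesis. The labels give 3 groups of 3 libraries each: Day0, labelled as human embryonic stem cells; Day21, labelled as neural progenitor cells; and Day42, labelled as TPH2-positive serotonin neurons. All 9 libraries carry the same treatment label, an induced differentiation into serotonin neurons, Day0 included. The labels call the libraries biological replicates and do not say whether they came from separate differentiations or clones, so a p-value reflects the spread among these libraries only, which may be technical. Nor do they say how the Day42 cells were selected by the reporter.

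Members were chosen on FPKM, fragments per kilobase of transcript and per unit of sequencing depth, from 17319 protein-coding genes off chromosome Y among the 34961 genes of the table. A gene was taken when its lowest Day21 library held at least 5 FPKM and at least 3 times the highest of the 6 Day0 and Day42 libraries. A total of 38 genes met both thresholds, and BGN and HES5 were left out by name, together with collagen genes and SHH, which leaves 36 members. Because Day21 values chose the members, their height on Day21 is a description here and was not tested. Members just inside the ratio included IGFBP2 at 3.09 and ENPP2 at 3.09, and FRZB at 2.98, IDH2 at 2.98 and ACKR3 at 2.95 sat just outside it. At the level threshold, the lowest Day21 library held 5.13 FPKM for LIX1, 5.34 FPKM for OAF and 5.45 FPKM for ENPP2, against 4.51 FPKM for SLC1A3, 4.34 FPKM for CD82 and 4.33 FPKM for EFCC1, which were not taken.

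Total counts per library ran from 58526466 to 69658328. The Day42 libraries listed fewer genes above 0, with 16077, 17101 and 10797 in replicates 1, 2 and 3, against 24741, 24592 and 24581 in the Day21 libraries and 22760, 22198 and 24359 in the Day0 libraries. Of 19 neural progenitor genes, 15 were at 1 FPKM or more in all Day21 libraries, against 5 on Day0 and 3 on Day42. HES1 and HES5, among the 19, met the thresholds of the set, so their place in the Day21 count was fixed by the rule. The Day42 count asks for 1 FPKM in replicate 3 too, the library with the fewest genes above 0. The same count was not made over all genes. Matrix genes other than collagens also had the most on Day21, with 5, 14 and 6 of 38 on Day0, Day21 and Day42. Pluripotency genes had 18, 6 and 1 of 20. The count is thus a description, and whether it is particular to progenitor genes was not tested. TPH2, whose locus carries the reporter, averaged 0.111 ± 0.0687 FPKM on Day0, 0.00449 ± 0.00390 FPKM on Day21 and 18.2 ± 3.63 FPKM on Day42 (SD, n = 3 each). These are bulk libraries, in which fewer cells of a type and less RNA per cell cannot be told apart.

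Neural progenitors divide, hold back their own differentiation through Notch signalling and its HES repressors, and respond to morphogens such as retinoic acid. In the retinoic acid pathway, CRABP proteins carry the ligand in the cytosol, nuclear receptors read it, and CYP26 enzymes degrade it and are themselves induced by it. IGF-binding and FGF-binding proteins control how much growth factor reaches its receptor, and D-type cyclins carry cells through G1. CRYBA1 is known as a structural protein of the eye lens, SST as an inhibitory neuropeptide, and PTX3 as a secreted pentraxin of innate immunity and of the hyaluronan matrix.

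The 36 genes spanned a wide range of levels. Mean Day21 FPKM ran from 6.06 for LIX1 to 3808 for CRABP1, with a median of 31.2, and the members together held 1.19% to 1.67% of all FPKM of a Day21 library. The genes lay on 17 chromosomes. By the gene ontology terms in the deposited table, 13 of the 36 (36.1%) were annotated to the extracellular region or space, against 313 of the 3208 other protein-coding genes that reached 5 FPKM in every Day21 library (9.76%). The annotation also covers ACTA2, an actin, and ADA, adenosine deaminase. The other genes were taken by Day21 level alone, not by a change between days, and the difference was not tested. Day pairs were compared with edgeR's quasi-likelihood fit over 20156 genes and all 9 libraries, where a call needed a p below 0.05 after Benjamini-Hochberg adjustment and a log2 fold change of 1 or more in size. In it, 17 members were called higher on Day21 than on Day0, where 1.32% of all tested genes were, and 25 were called lower on Day42 than on Day21, where 19.7% of all tested genes were. The rule used both contrasts, so nothing is read from these counts.

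**Figure D1:**
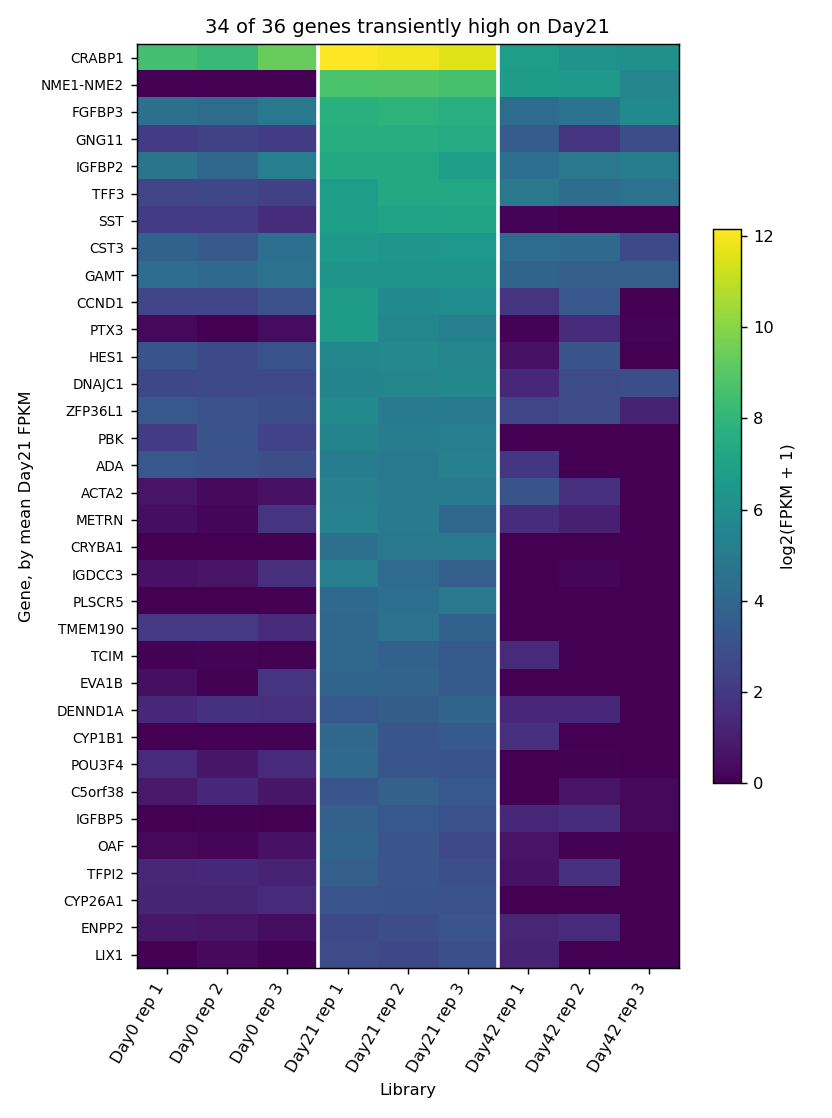
Colour gives log2(FPKM + 1) of 34 of the 36 genes (down, by mean Day21 FPKM) in the 9 libraries (across, in day order, white lines between days). Every gene shown is brightest in the 3 Day21 columns, as the rule requires, and Day42 replicate 3 has the most dark cells, with 20 of the 36 genes at 0.

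PLSCR5, CRYBA1 and PTX3 are the genes taken as markers of the set. PLSCR5, a member of the phospholipid scramblase family (chromosome 3, 146576555 to 146605239, minus strand, GRCh38), stood at 0 FPKM in all 3 Day0 libraries, at 17.0, 20.5 and 28.5 FPKM in the Day21 libraries and at 0.0268, 0 and 0 FPKM in the Day42 libraries. Its only reads outside Day21 were 5 counts in Day42 replicate 1. CRYBA1, a beta-crystallin (chromosome 17, 29246859 to 29254494, plus strand), was at 0 in all Day0 and all Day42 libraries and at 21.5, 27.8 and 28.7 FPKM in the Day21 libraries. Its Day21 mean of 26.0 ± 3.90 FPKM (SD, n = 3) was at least 133-fold above Day0 and at least 126-fold above Day42, where the bound is the limit that 0 allows, taken as 12 counts per library. PTX3 (chromosome 3, 157436850 to 157443633, plus strand) had 0.208, 0.0249 and 0.325 FPKM in the Day0 libraries, 100.02, 46.1 and 37.5 FPKM in the Day21 libraries and 0.0858, 1.73 and 0.0760 FPKM in the Day42 libraries. The Day21 libraries of all 3 genes lay apart from the other 6. Within Day21, PTX3 was highest in replicate 1 and PLSCR5 and CRYBA1 were highest in replicate 3. PTX3 shares exon sequence with VEPH1 on the other strand, and PLSCR5 with an antisense transcript; no strand setting for the counts is stated in the labels, so reads of such pairs cannot be told apart.

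**Figure D2:**
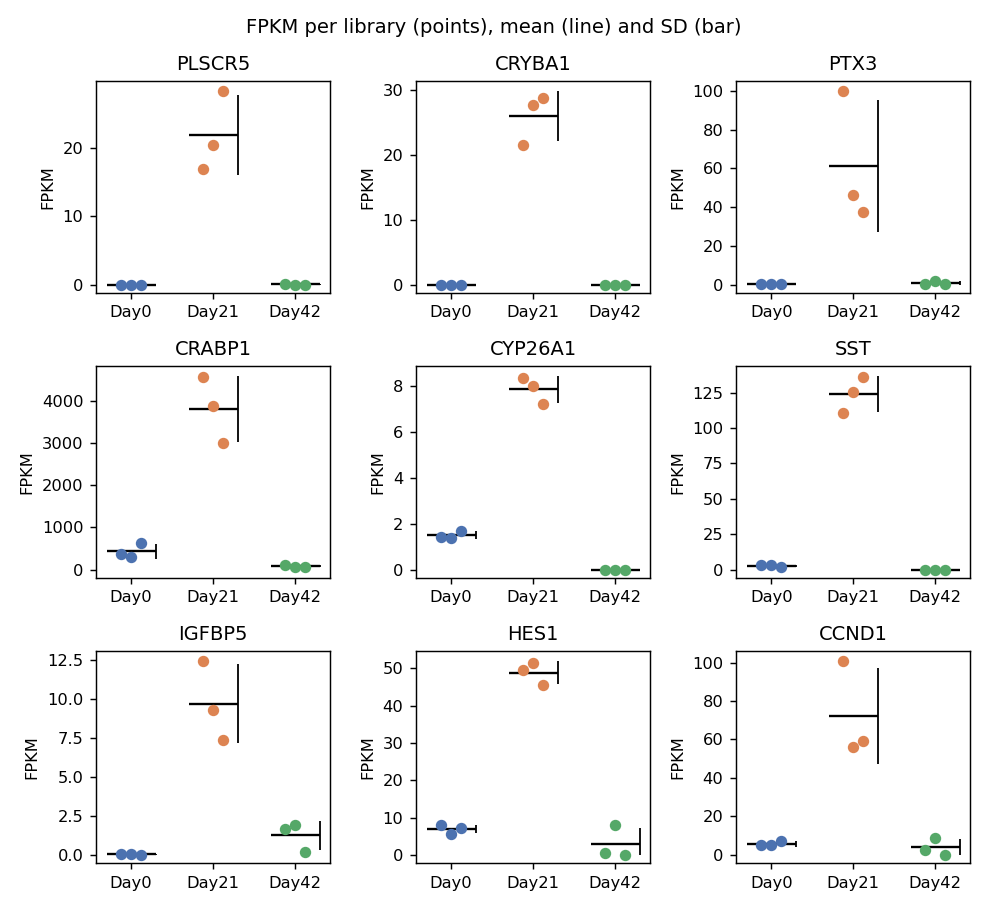
FPKM (vertical axes, each from 0 on its own scale) in the 3 libraries of each day for 9 of the 36 genes, with the mean as a line and the SD as a bar. PLSCR5 and CRYBA1 sit at or near 0 on both other days, CRABP1 keeps a mean of 432 FPKM on Day0, and PTX3 and CCND1 have 1 high library, replicate 1, on Day21.

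The promoter windows of these 3 genes are shown as the start regions of the markers, which differ in whether a TATAAA motif stands near the start. Each window runs from 250 bases before to 50 bases after the RefSeq start (build GRCh38.p14), read along the gene, with motif matches in capitals and all else in lower case. The windows are chr3:146605297-146605596, minus strand; chr17:29246609-29246908, plus strand; and chr3:157436600-157436899, plus strand. Of the motifs searched, only CRYBA1 of these 3 held a match, a TATAAA 30 bases before the start.

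PLSCR5: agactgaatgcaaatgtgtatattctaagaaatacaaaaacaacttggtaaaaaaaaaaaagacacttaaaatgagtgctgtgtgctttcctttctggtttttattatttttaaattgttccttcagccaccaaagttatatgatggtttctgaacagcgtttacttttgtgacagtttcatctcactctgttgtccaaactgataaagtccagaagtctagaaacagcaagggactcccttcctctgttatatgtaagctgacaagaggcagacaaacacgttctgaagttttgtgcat

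CRYBA1: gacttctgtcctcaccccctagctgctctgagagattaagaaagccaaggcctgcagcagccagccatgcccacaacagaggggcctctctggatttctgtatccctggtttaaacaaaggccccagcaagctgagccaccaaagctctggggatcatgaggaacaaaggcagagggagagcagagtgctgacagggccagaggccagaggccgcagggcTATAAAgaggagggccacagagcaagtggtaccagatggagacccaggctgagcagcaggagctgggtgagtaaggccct

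PTX3: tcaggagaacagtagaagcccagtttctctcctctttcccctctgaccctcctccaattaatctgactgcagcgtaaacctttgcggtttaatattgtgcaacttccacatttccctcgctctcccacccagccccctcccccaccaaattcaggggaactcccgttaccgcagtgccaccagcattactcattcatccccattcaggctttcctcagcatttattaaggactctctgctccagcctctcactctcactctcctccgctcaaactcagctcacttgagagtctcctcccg

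Among retinoic acid genes, CRABP1 and CYP26A1 were members. CRABP1 had 365, 298 and 634 FPKM in the Day0 libraries, 4558, 3869.5 and 2997 FPKM in the Day21 libraries and 111, 73.0 and 67.4 FPKM in the Day42 libraries. CRABP1 was the most abundant member by mean FPKM on each of the 3 days, and its Day21 mean of 3808 ± 782 FPKM was 8.81-fold the Day0 mean and 45.4-fold the Day42 mean. An uncharacterised transcript, AC011270, overlaps CRABP1 on the other strand and met the same thresholds. CYP26A1 had 1.42, 1.38 and 1.69 FPKM in the Day0 libraries, 8.37, 8.02 and 7.23 FPKM in the Day21 libraries and 0 FPKM in the Day42 libraries. CYP26A1 was thus low on Day0, in a narrow range on Day21 and not detected on Day42, at least 143-fold below Day21. A transcript on the same strand shares exon sequence with CYP26A1.

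The other genes of the pathway, from a list of 20, went in several directions. Of 18 tested, 4 were called higher on Day21 than on Day0 and 0 lower, against 1.32% and 1.18% of all genes; the fit of only these 2 days called 8 higher and 3 lower, against 13% and 12.6% of all genes. CRABP1, chosen by the rule for its Day21 level, is among the 4. Of the 16 genes that are no members, 3 were called higher, or 6 in the fit of only these 2 days. Leaving out Day42 replicate 3 from the 9-library fit gave 7 higher and 1 lower, and over all single-library omissions 2 to 7 were higher. The omission of Day42 replicate 3 also raised the calls over all genes, from 266 to 1434 higher and from 238 to 1460 lower. The genes called beside CRABP1 included NR2F1 and NR2F2, orphan nuclear receptors. NR2F1 averaged 13.041 ± 6.01 FPKM on Day21 and 0.0116 ± 0.0200 FPKM on Day0 (SD, n = 3 each; log2 fold change 10.09, SE 1.65, adjusted p = 0.0186, edgeR). NR2F2 averaged 6.76 ± 1.34 FPKM on Day21 and 0.00999 ± 0.0173 FPKM on Day0 (log2 fold change 9.27, SE 1.56, adjusted p = 0.0213). CRABP2, the paralog of CRABP1, was lowest on Day21, with 35.1, 15.3 and 71.3 FPKM on average on Day0, Day21 and Day42. It was called higher on Day42 than on Day21 (log2 fold change 1.57, SE 0.29, adjusted p = 0.00553), while Day21 against Day0 did not pass the test (adjusted p = 0.0517). The other CYP26 genes were low, with Day21 means of 0.00661 FPKM for CYP26B1 and 0.212 FPKM for CYP26C1.

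CYP26A1 and CRABP1 windows are shown for their matches near the start. The CYP26A1 window at chr10:93073643-93073942, plus strand, held AGTTCA, a half-site of retinoic acid receptors, at 90 and 79 bases before the start on the opposite strand (printed as its reverse complement). It also held a TATAAA box 31 bases before the start, and the E-box core CACCTG, again on the opposite strand, 14 bases after it. The CRABP1 window at chr15:78340103-78340402, plus strand, held TGACTCA, the motif of AP-1 factors, 35 bases before the start.

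CYP26A1: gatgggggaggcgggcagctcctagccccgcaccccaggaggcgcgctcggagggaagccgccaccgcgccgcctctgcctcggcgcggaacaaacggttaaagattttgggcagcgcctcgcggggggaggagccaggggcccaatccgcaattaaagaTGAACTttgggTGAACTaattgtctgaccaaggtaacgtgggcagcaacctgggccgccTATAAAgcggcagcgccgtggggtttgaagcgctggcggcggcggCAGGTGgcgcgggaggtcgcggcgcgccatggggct

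CRABP1: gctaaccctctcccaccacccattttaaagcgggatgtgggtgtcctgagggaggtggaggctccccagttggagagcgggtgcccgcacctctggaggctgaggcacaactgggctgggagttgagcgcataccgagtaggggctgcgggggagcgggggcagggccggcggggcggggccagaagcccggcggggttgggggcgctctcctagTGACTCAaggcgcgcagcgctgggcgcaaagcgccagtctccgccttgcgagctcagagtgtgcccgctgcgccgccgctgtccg

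Secreted proteins include binding proteins of growth factors, protease inhibitors and peptides. IGFBP2 and IGFBP5, which bind insulin-like growth factors, are neighbours on chromosome 2 with 7669 bases between them. IGFBP2 had 24.5, 16.4 and 36.7 FPKM in the Day0 libraries, 161, 164 and 113 FPKM in the Day21 libraries and 20.9, 27.2 and 33.7 FPKM in the Day42 libraries. IGFBP5 had 0.0174, 0.0634 and 0.00772 FPKM in the Day0 libraries, 12.4, 9.28 and 7.37 FPKM in the Day21 libraries and 1.62, 1.92 and 0.188 FPKM in the Day42 libraries. Both were highest on Day21, IGFBP5 in replicate 1 and IGFBP2 in replicate 2, and IGFBP5 was close to 0 on Day0. IGFBP2 averaged 27.3 ± 6.42 FPKM on Day42 and 25.9 ± 10.2 FPKM on Day0, while edgeR on TMM-scaled counts gave a log2 fold change of -0.60 (SE 0.31), which did not pass the test. Of 15 tested genes of this pathway, 5 were called higher on Day21 than on Day0 and 1 lower (33.3% and 6.67%), against 1.32% and 1.18% of all genes, and the rule had chosen IGFBP2 and IGFBP5 among the 5 for their Day21 level. Of the other 13, 3 were higher and 1 lower, and 4 and 2 in the fit of only these 2 days. The fit of only these 2 days called 6 of the 15 higher and 2 lower (40% and 13.3%), against 13% and 12.6% of all genes. In the 9-library fit, 1 to 6 were higher over single-library omissions and 6 without Day42 replicate 3, where 1434 of all genes were called higher. Beside the 2 members, the 5 genes called over all 9 libraries included IGF2, IGFBP3 and IGFBPL1. IGFBP3 averaged 21.6 ± 7.17 FPKM on Day21 and 1.24 ± 0.575 FPKM on Day0 (log2 fold change 4.07, SE 0.39, adjusted p = 0.00199), and at 24.5 ± 4.64 FPKM on Day42 it did not pass the test against Day21 (adjusted p = 0.43). IGF2 averaged 1.25 ± 0.180 FPKM on Day21 and 0.0944 ± 0.0216 FPKM on Day0 (adjusted p = 0.0447). IGFBPL1 averaged 152 ± 44.4 FPKM on Day21 and 19.8 ± 16.1 FPKM on Day0 (adjusted p = 0.0481).

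FGFBP3, a secreted carrier of fibroblast growth factors, was the third most abundant member. FGFBP3 had 21.6, 18.8 and 28.9 FPKM in the Day0 libraries, 209.8, 229.8 and 203 FPKM in the Day21 libraries and 18.4, 23.7 and 55.1 FPKM in the Day42 libraries. Its relatives were low on Day21, with FGFBP1 and FGFBP2 at 0 in all Day21 libraries. TFF3 had 4.88, 5.22 and 4.22 FPKM in the Day0 libraries, 112, 162 and 151 FPKM in the Day21 libraries and 27.5, 19.1 and 22.3 FPKM in the Day42 libraries. TFF3, a trefoil peptide that protects mucosal surfaces, lay higher in every Day42 library than in any Day0 library. SST had 3.34, 3.21 and 1.97 FPKM in the Day0 libraries, 111, 126 and 136 FPKM in the Day21 libraries and 0.0946, 0 and 0 FPKM in the Day42 libraries. SST, the somatostatin precursor, had 5 counts in Day42 replicate 1 and 0 in the other Day42 libraries. The somatostatin-related gene CORT averaged 0.672 FPKM on Day21. CST3 had 12.5, 9.63 and 20.7 FPKM in the Day0 libraries, 92.8, 83.2 and 88.6 FPKM in the Day21 libraries and 18.9, 16.9 and 5.61 FPKM in the Day42 libraries. CST3, cystatin C, is a secreted inhibitor of cysteine proteases, and its Day42 and Day0 libraries overlapped.

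The remaining secreted members, listed here with OAF, were less abundant. METRN, which promotes glial differentiation and neurite growth, averaged 29.1 ± 12.7 FPKM on Day21 and 1.04 ± 1.37 FPKM on Day0, and its Day0 replicate 3, at 2.61 FPKM, stood above the other Day0 libraries. TFPI2, an inhibitor of serine proteases in the matrix, averaged 9.001 ± 2.65 FPKM on Day21, and ENPP2, which makes the lipid mediator lysophosphatidic acid, averaged 6.62 ± 1.38 FPKM (SD, n = 3). OAF averaged 9.24 ± 4.50 FPKM on Day21, with 14.2, 8.22 and 5.34 FPKM in replicates 1, 2 and 3. C5orf38, annotated as extracellular, averaged 9.80 ± 2.04 FPKM, while OAF carried no such annotation in the deposited table. TFPI2 and GNG11, where GNG11 is a gamma subunit of heterotrimeric G proteins, lie 30982 bases apart on chromosome 7.

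Regulators of progenitor state and cell cycle came next. HES1, a repressor induced by Notch that keeps progenitors undifferentiated, had 7.87, 5.66 and 7.31 FPKM in the Day0 libraries, 49.6, 51.6 and 45.5 FPKM in the Day21 libraries and 0.436, 7.87 and 0 FPKM in the Day42 libraries. The Day21 libraries agreed closely for HES1, and Day42 replicate 2 reached the Day0 level while the other Day42 libraries did not. Of 20 tested Notch pathway genes, 1 was called higher on Day21 than on Day0 (5%, against 1.32% of all genes) and 0 lower. Without Day42 replicate 3, 2 were higher and 1 lower, where 1434 and 1460 of all genes were. The fit of only these 2 days called 6 higher and 1 lower (30% and 5%, against 13% and 12.6% of all genes). HES1, which the rule chose, is among the 6, and 5 of the other 19 were higher. The gene called over all 9 libraries was HES4, at 15.9 ± 3.49 FPKM on Day21 and 0.342 ± 0.239 FPKM on Day0 (log2 fold change 5.43, SE 1.00, adjusted p = 0.0307, edgeR). At 19.1 ± 13.6 FPKM on Day42, HES4 did not pass the test against Day21 (adjusted p = 0.82). Of 19 neural progenitor genes, 3 (HES5, CDH2 and VIM) were called higher on Day21 than on Day0 (15.8%, against 1.32% of all genes) and 0 lower. The fit of only these 2 days called 13 higher (68.4%, against 13% of all genes). Without Day42 replicate 3, 10 were higher, where 1434 of all genes were. Between Day42 and Day21, 10 of the 19 were called lower on Day42 (52.6%, against 19.7% of all genes) and 1 higher. The list holds HES1 and HES5, which met the thresholds of the set, and of the other 17 genes 2 were called higher on Day21 and 9 lower on Day42. In the fit of only Day21 and Day0, 11 of these 17 were higher on Day21. The HES1 window at chr3:194135898-194136197, plus strand, is shown for its GTGGGAA, the motif of the Notch effector RBPJ, 85 bases before the start.

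HES1: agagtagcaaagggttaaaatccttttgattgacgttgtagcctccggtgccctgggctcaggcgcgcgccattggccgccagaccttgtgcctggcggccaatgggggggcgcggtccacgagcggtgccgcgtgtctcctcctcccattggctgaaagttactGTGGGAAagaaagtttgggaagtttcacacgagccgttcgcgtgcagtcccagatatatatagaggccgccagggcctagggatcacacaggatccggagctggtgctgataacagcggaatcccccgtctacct

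CCND1, cyclin D1, had 4.84, 4.87 and 7.21 FPKM in the Day0 libraries, 101, 56.2 and 59.3 FPKM in the Day21 libraries and 2.65, 8.73 and 0.0286 FPKM in the Day42 libraries. Its level on Day42 ran across the 3 libraries from near 0 to above every Day0 library. CCND2, its paralog, was lower on Day21 than CCND1, with 13.3, 5.66 and 0.0551 FPKM on Day0, Day21 and Day42. ZFP36L1, which marks AU-rich mRNAs for decay, had 52.8, 30.6 and 29.2 FPKM on Day21, with replicate 1 above the other libraries. PBK, a kinase of mitotic cells, had 3.40, 7.83 and 4.50 FPKM on Day0 and 41.962, 33.2 and 35.5 FPKM on Day21, and was at 0 in all Day42 libraries, at least 483-fold below Day21. POU3F4, a POU-homeodomain factor of the neural tube and inner ear, had 1.86, 0.666 and 1.82 FPKM on Day0, 16.6, 8.16 and 8.02 FPKM on Day21 and 0.0150, 0.0362 and 0 FPKM on Day42. Its relative POU3F2 averaged 4.25 ± 1.88 FPKM on Day21 and 0.0372 ± 0.0322 FPKM on Day0. TCIM, a positive regulator of Wnt signalling, averaged 12.6 ± 2.77 FPKM on Day21 and 0.0459 ± 0.0408 FPKM on Day0.

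Signalling, membrane and trafficking genes followed. GNG11 had 3.28, 4.02 and 3.43 FPKM in the Day0 libraries, 189, 191 and 178 FPKM in the Day21 libraries and 10.3, 2.64 and 6.36 FPKM in the Day42 libraries. GNG11 was thus 51.9-fold above Day0 and 28.9-fold above Day42 by mean FPKM, with Day21 libraries close together. IGDCC3, an immunoglobulin-superfamily membrane protein, had 0.508, 0.580 and 2.23 FPKM on Day0, 36.3, 18.1 and 11.8 FPKM on Day21 and 0, 0.121 and 0 FPKM on Day42, and spread more within Day21 than any other member (coefficient of variation 57.7%). DENND1A, an exchange factor for RAB35, averaged 11.4 ± 2.35 FPKM on Day21 and 2.02 ± 0.365 FPKM on Day0. The transmembrane protein TMEM190 averaged 17.4 ± 5.18 FPKM on Day21 and EVA1B averaged 12.5 ± 2.39 FPKM, and both were at 0 in every Day42 library. LIX1 had 6.14, 5.13 and 6.92 FPKM on Day21.

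Enzymes and structural genes completed the set. GAMT, the last enzyme of creatine synthesis, had the smallest spread on Day21, with 19.6, 16.9 and 23.0 FPKM on Day0, 76.5, 77.8 and 76.2 FPKM on Day21 and 14.1, 11.9 and 11.9 FPKM on Day42. ADA, adenosine deaminase, had 8.90, 7.73 and 6.52 FPKM on Day0, 33.9, 31.1 and 37.7 FPKM on Day21 and 2.86, 0 and 0 FPKM on Day42. CYP1B1, a cytochrome that oxidises estradiol and retinol, was close to 0 on Day0, had 14.9, 8.56 and 9.81 FPKM on Day21 and kept 2.15 FPKM in Day42 replicate 1 alone. DNAJC1, a co-chaperone of the endoplasmic reticulum, averaged 5.45, 45.9 and 4.77 FPKM on Day0, Day21 and Day42. ACTA2, smooth muscle actin, averaged 33.3 ± 4.13 FPKM on Day21 and 0.432 ± 0.176 FPKM on Day0. ACTC1, the cardiac actin, was called lower on Day21 at 0.466 ± 0.0463 FPKM, against 62.2 ± 21.2 FPKM on Day0 (log2 fold change -7.08, SE 0.40, adjusted p = 0.000923). The skeletal actin ACTA1 averaged 0.171 ± 0.133 FPKM on Day21 and 140.0 ± 38.3 FPKM on Day0, and the smooth muscle actin ACTG2 averaged 10.2 ± 1.95 FPKM on Day21 and 4.22 ± 0.752 FPKM on Day0; neither was called. Of 15 tested muscle genes, 0 were called higher and 3 lower (20%, against 1.18% of all genes) on Day21 than on Day0. Without Day42 replicate 3, 1 was higher and 7 lower, where 1434 and 1460 of all genes were. The fit of only these 2 days called 1 of 14 higher and 8 lower (7.14% and 57.1%), against 13% and 12.6% of all genes. The 1 higher in that fit was ACTA2, which the rule chose, and of the other 13 genes 0 were higher and 8 lower. NME1-NME2, a readthrough of 2 nucleoside diphosphate kinase genes, was listed at 0 in all Day0 libraries and at 424, 426 and 397 FPKM on Day21. It shares exons with NME1 (378, 345 and 80.8 FPKM on Day0, Day21 and Day42) and NME2 (677, 149 and 73.6 FPKM), whose reads the counting could divide among the 3 models, so its pattern is uncertain.

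Within Day21, members did not share one order of libraries. Replicate 1 was highest for 17 members, replicate 2 for 9 and replicate 3 for 10, that is 47.2%, 25% and 27.8% of members, against 42.3%, 14.6% and 43.0% of the 3208 other genes. In 12 members (33.3%) replicate 1 was at least 1.5 times replicate 3, against 12.2% of the other genes. These were CRABP1, CCND1, PTX3, ZFP36L1, METRN, IGDCC3, TCIM, CYP1B1, POU3F4, IGFBP5, OAF and TFPI2. In 7 members (19.4%), TFF3, SST, DNAJC1, CRYBA1, PLSCR5, DENND1A and ENPP2, replicate 3 was at least 1.2 times replicate 1, against 33.6% of the other genes. Both ratios were chosen after the values were seen. The highest Day21 library was at least 2 times the lowest in 5 members (13.9%), against 7.11% of the other genes, and the median of this ratio was 1.45 for members and 1.35 for the others.

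Markers of mesenchyme and fibroblasts differed in which Day21 library was highest. Summed over 27 such genes, they came to 412, 309 and 266 FPKM in Day21 replicates 1, 2 and 3, between 84.4 and 149 FPKM in the Day42 libraries and between 131 and 206 FPKM in the Day0 libraries. SPARC, a matrix glycoprotein, had 271, 175 and 136 FPKM in Day21 replicates 1, 2 and 3, and without it the sum was 141, 134 and 129.7 FPKM. Of the 27, 9 were at 1 FPKM or more in all Day21 libraries, of which 6 were highest in replicate 1 and LUM, S100A4 and PRRX2 in replicate 2, and TCF21 and MFAP5 were at 0 in all of them. LUM, the proteoglycan lumican, had 77.7, 89.5 and 88.2 FPKM in the same order of libraries. On Day21 against Day0, 2 of 20 tested were called higher (DCN and SPARC) and 1 lower (THY1), that is 10% and 5%, against 1.32% and 1.18% of all genes. Without Day42 replicate 3, 7 were higher and 3 lower, where 1434 and 1460 of all genes were. The fit of only these 2 days called 10 of 18 higher and 4 lower (55.6% and 22.2%), against 13% and 12.6% of all genes. Matrix and matricellular genes other than collagens summed to 379, 233 and 191 FPKM in Day21 replicates 1, 2 and 3, and to 108, 57.8 and 55.2 FPKM without SPARC. Other lists were highest in Day21 replicate 1 as well, such as floor plate genes with 29.3, 20.4 and 19.9 FPKM in replicates 1, 2 and 3. Insulin-like growth factor genes were highest in replicate 2, with 340, 363 and 348 FPKM. Whether mesenchymal cells were present, and any part of theirs in the spread of the members, was not tested.

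**Figure D3:**
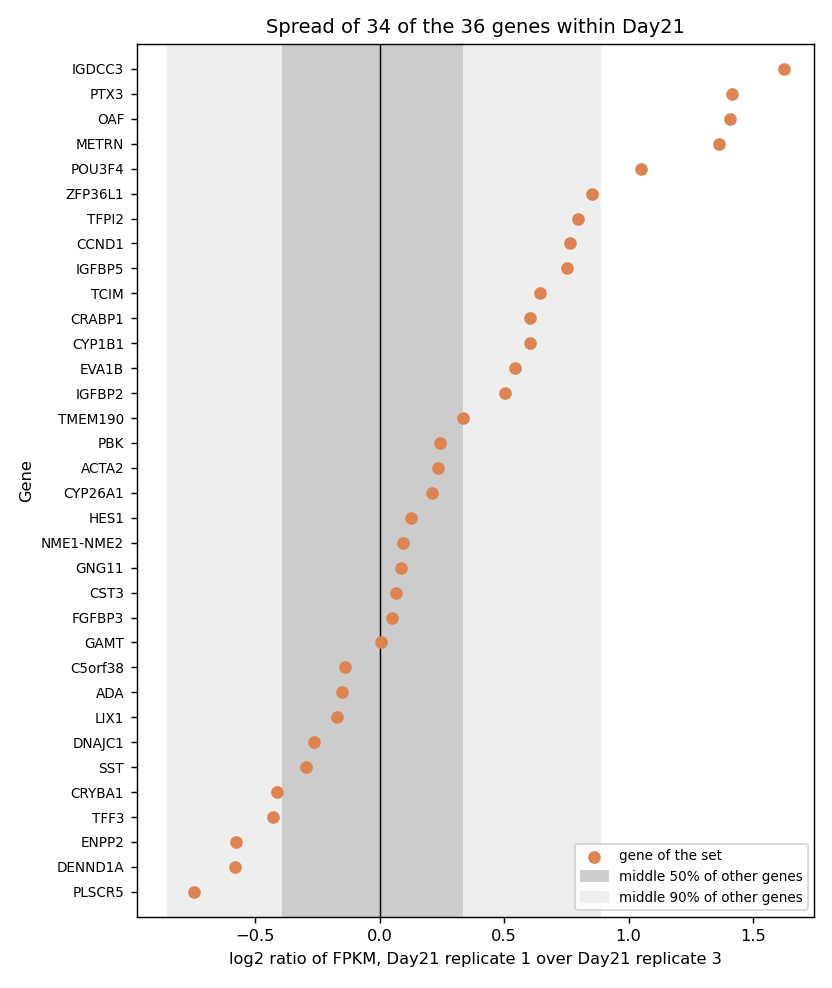
Points give the log2 ratio of FPKM in Day21 replicate 1 over replicate 3 for 34 of the 36 genes, with the middle 50% and 90% of the 3208 other genes that reached 5 FPKM on Day21 in grey. IGDCC3, PTX3, OAF and METRN lie at the right end, beyond the middle 90%, and PLSCR5 lies at the left end.

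The difference between Day42 and Day0 was not fixed by the rule and was tested. Of the 36 members, all of them tested, 3 were called higher on Day42 (8.33%), against 8.82% of all genes, and 10 lower (27.8%), against 23.4% of all genes. In both directions together 13 members were called, and 32.2% of all genes were. Of the 36, 5 (CRYBA1, PLSCR5, CYP1B1, TCIM and EVA1B) passed the filter on low counts only through Day21. Among the other 31, 3 were called higher and 9 lower (9.68% and 29%). The median log2 fold change was -0.94 over the 36 members, -1.27 over these 31 and -0.57 over all genes tested, and nothing particular to the members is read from it. The Day42 libraries all lay above the Day0 libraries for 3 members and below them for 12, and overlapped for 21, or 3, 11 and 17 of the 31; over all genes the shares above and below were 16.1% and 27.3%. Leaving out 1 library at a time gave 3 to 4 higher and 8 to 12 lower members, with 4 and 12 without Day42 replicate 3. That omission moved the count of all genes called higher to 3220, against 1778, and omission of Day0 replicate 1 moved it to 1072. The scaling matters here: log2 changes of Day42 over Day0 lay 0.70 higher on deposited FPKM than on TMM-scaled counts, so FGFBP3 and IGFBP2, not called in either, had higher mean FPKM on Day42 than on Day0 and log2 fold changes under 0 by edgeR. By limma on log2(FPKM + 1), 2 members were called higher and 7 lower, and 2338 and 2079 of all genes.

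The 3 members called higher on Day42 were NME1-NME2, TFF3 and IGFBP5. TFF3 averaged 23.0 ± 4.27 FPKM on Day42 and 4.77 ± 0.508 FPKM on Day0 (SD, n = 3 each; log2 fold change 1.55, SE 0.32, adjusted p = 0.00707, edgeR). IGFBP5 averaged 1.24 ± 0.927 FPKM on Day42 and 0.0295 ± 0.0297 FPKM on Day0 (log2 fold change 4.57, SE 1.03, adjusted p = 0.0104), and Day42 replicate 3, at 0.188 FPKM, was its lowest Day42 library. NME1-NME2 averaged 80.8 ± 32.1 FPKM on Day42, at least 643-fold above Day0, where it was listed at 0 (adjusted p = 9.41e-05). It shares exons with NME1 and NME2, both called lower on Day42 than on Day0 (log2 fold change -2.93 and -3.87, adjusted p = 0.000648 and 0.00114, edgeR). The counting could divide reads among the 3 models, so the direction of NME1-NME2 is uncertain. In the fit of only the 2 days, 1 member, NME1-NME2, was called higher and 6 lower, against 6.89% and 18.5% of all genes, as the calls of TFF3 (log2 fold change 1.60, adjusted p = 0.105) and IGFBP5 (log2 fold change 4.61, adjusted p = 0.0719) were lost with fold changes close to those over 9 libraries.

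The members called lower on Day42 were CRABP1, SST, GAMT, ZFP36L1, PBK, IGDCC3, TMEM190, EVA1B, POU3F4 and CYP26A1. CRABP1 averaged 83.8 ± 23.8 FPKM on Day42 and 432 ± 178 FPKM on Day0 (log2 fold change -3.04, SE 0.31, adjusted p = 0.000406). POU3F4 averaged 0.0171 ± 0.0182 FPKM on Day42 and 1.45 ± 0.677 FPKM on Day0 (log2 fold change -7.01, SE 1.24, adjusted p = 0.00363). SST averaged 0.0315 ± 0.0546 FPKM on Day42 and 2.84 ± 0.756 FPKM on Day0 (adjusted p = 0.00381), with 5, 0 and 0 counts in the Day42 libraries, all under the limit of 12, and 144, 157 and 96 counts in the Day0 libraries. GAMT averaged 12.6 ± 1.299 FPKM on Day42 and 19.8 ± 3.04 FPKM on Day0 (log2 fold change -1.35, SE 0.22, adjusted p = 0.00294), and by limma on log2(FPKM + 1) its change was -0.60, under the size threshold. With 0 in all Day42 libraries, PBK was at least 68.6-fold lower on Day42, against its Day0 mean (adjusted p = 0.000177, edgeR). CYP26A1 was at least 27.1-fold lower (adjusted p = 0.000347) and TMEM190 at least 9.63-fold (adjusted p = 0.00144), by the same measure. EVA1B, also at 0 in all Day42 libraries, had 35, 7 and 253 counts in the Day0 libraries, the 7 under the limit of 12. EVA1B passed the filter on low counts only through Day21, so nothing is read from its call.

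The calls of ZFP36L1 and IGDCC3 were the least firm. ZFP36L1 averaged 3.98 ± 2.38 FPKM on Day42 and 7.65 ± 1.298 FPKM on Day0 (log2 fold change -1.69, SE 0.51, adjusted p = 0.034), and lost its call when any single Day0 or Day21 library was left out (adjusted p between 0.0506 and 0.104), with log2 fold changes from -1.87 to -1.49. IGDCC3 averaged 0.0403 ± 0.0698 FPKM on Day42 and 1.11 ± 0.972 FPKM on Day0 (log2 fold change -5.46, SE 1.72, adjusted p = 0.0403). It lost its call without any single Day0 or Day21 library or without Day42 replicate 1 (adjusted p between 0.0597 and 0.107), with log2 fold changes from -5.78 to -4.60. ADA and C5orf38 lay lower in every Day42 library than in any Day0 library and did not pass the test (adjusted p = 0.213 and 0.161). For the 23 members not called, a p above the threshold does not show that the days were alike: HES1 had a log2 fold change of -2.10 with an SE of 1.61. CYP1B1, at 4.84 with an SE of 2.58, passed the filter on low counts only through Day21, so nothing is read from its value.

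**Figure D4:**
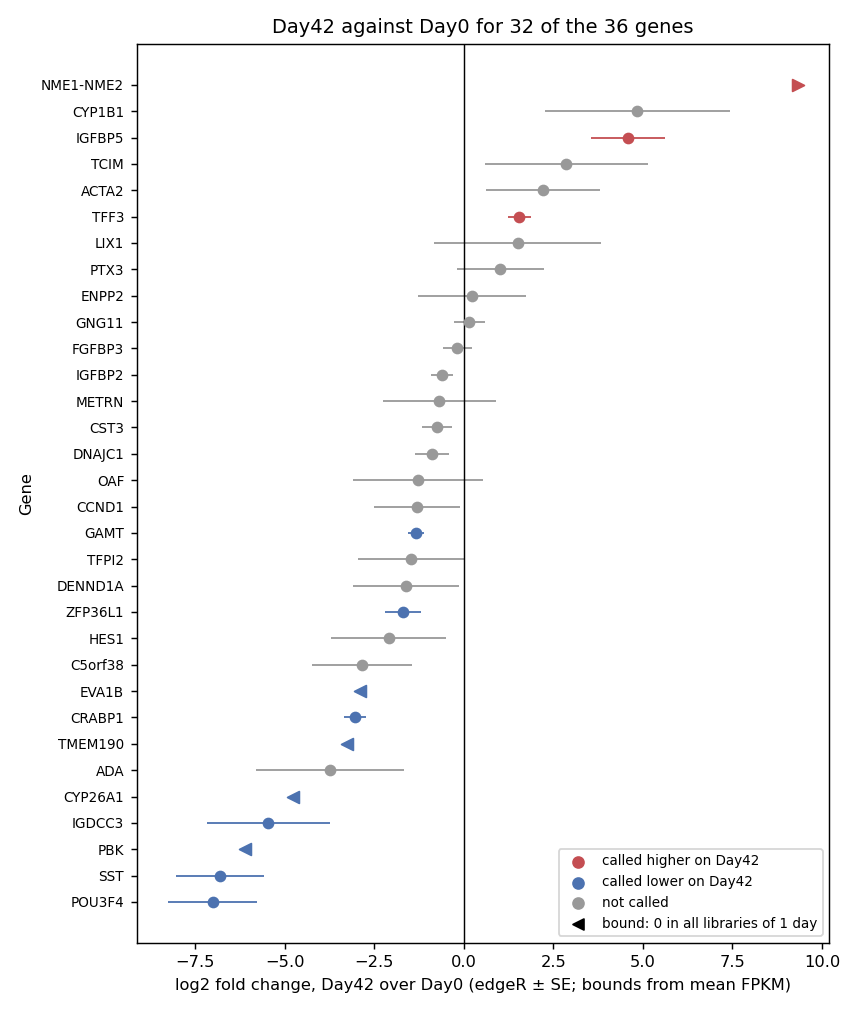
Horizontal axis: log2 fold change of Day42 over Day0 for 32 of the 36 genes, with points and SE bars from edgeR, or triangles where all libraries of 1 day were at 0 and the mark is a lower bound of the size. CRYBA1 and PLSCR5, at or under the limit that 0 allows on both days, are among those left out; 3 genes are called higher (red) and 10 lower (blue), among them CRABP1 and POU3F4.

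Zeros of members on Day42 fell unevenly over the libraries. On Day42, 7, 12 and 20 members were at 0 in replicates 1, 2 and 3 (19.4%, 33.3% and 55.6%). Of the 3208 other genes that reached 5 FPKM on Day21, 2.43%, 2.18% and 12.2% were, so replicate 3 had the most zeros there too. The rule held Day0 and Day42 values of members low, so their number of zeros is a description. CRYBA1, TMEM190, PBK, EVA1B and CYP26A1 were at 0 in all Day42 libraries, and 21 members were at 0 in at least 1 of them. On Day0, PLSCR5, CRYBA1 and NME1-NME2 were at 0 in all libraries. Day42 replicate 3 is also the library with the fewest genes above 0, and the part of that in the zeros of the members was not tested. Without it the rule took 38 genes, among them all 36 members, since leaving out a library can only add genes.

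Relatives of the members from the same gene families were called in both directions. The table held 63 such relatives, of which 49 were tested. On Day21 against Day0, 2 were called higher (IGFBP3 and HES4) and 3 lower (CRYBB1, ACTC1 and NME2), that is 4.08% and 6.12%, against 1.32% and 1.18% of all genes. The fit of only these 2 days called 11 of 48 higher and 12 lower (22.9% and 25%), against 13% and 12.6% of all genes. On Day42 against Day21, 3 were called higher (CRABP2, CRYBA2 and DENND1B) and 13 lower (6.12% and 26.5%), against 6.52% and 19.7% of all genes. The crystallins, the structural proteins of the lens, were high on different days. CRYBA2 averaged 225 ± 25.9 FPKM on Day42 and 0.244 ± 0.175 FPKM on Day21 (SD, n = 3 each, log2 fold change 9.10, SE 1.38, adjusted p = 0.00284, edgeR). CRYBA1 was detected on Day21 and at 0 on Day0 and Day42. CRYBB1 averaged 0.251 ± 0.109 FPKM on Day21 and 8.45 ± 2.28 FPKM on Day0 (log2 fold change -5.15, SE 0.89, adjusted p = 0.0435), and was at 0 on Day42. CRYBA4 averaged 0.529 ± 0.259 FPKM on Day21 and 5.93 ± 0.972 FPKM on Day0, which did not pass the test (adjusted p = 0.097). Of 27 lens and eye genes, 3 were at 1 FPKM or more in all Day21 libraries, and CRYAA, CRYGD, FOXE3, RAX, SIX6 and TYRP1 were at 0 in all of them. Without CRYBA1, the list summed to 14.0, 11.9 and 10.7 FPKM on Day21. Of its 17 tested genes CRYBA1 alone, which the rule chose, was called higher on Day21 than on Day0 and CRYBB1 lower (5.88% each, against 1.32% and 1.18% of all genes). Without Day42 replicate 3, 4 were higher and 3 lower, where 1434 and 1460 of all genes were. The fit of only these 2 days called 4 of 15 higher and 3 lower, against 13% and 12.6% of all genes. Outside the set, 3 of 14 were higher and 3 lower in that fit.

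**Figure D5:**
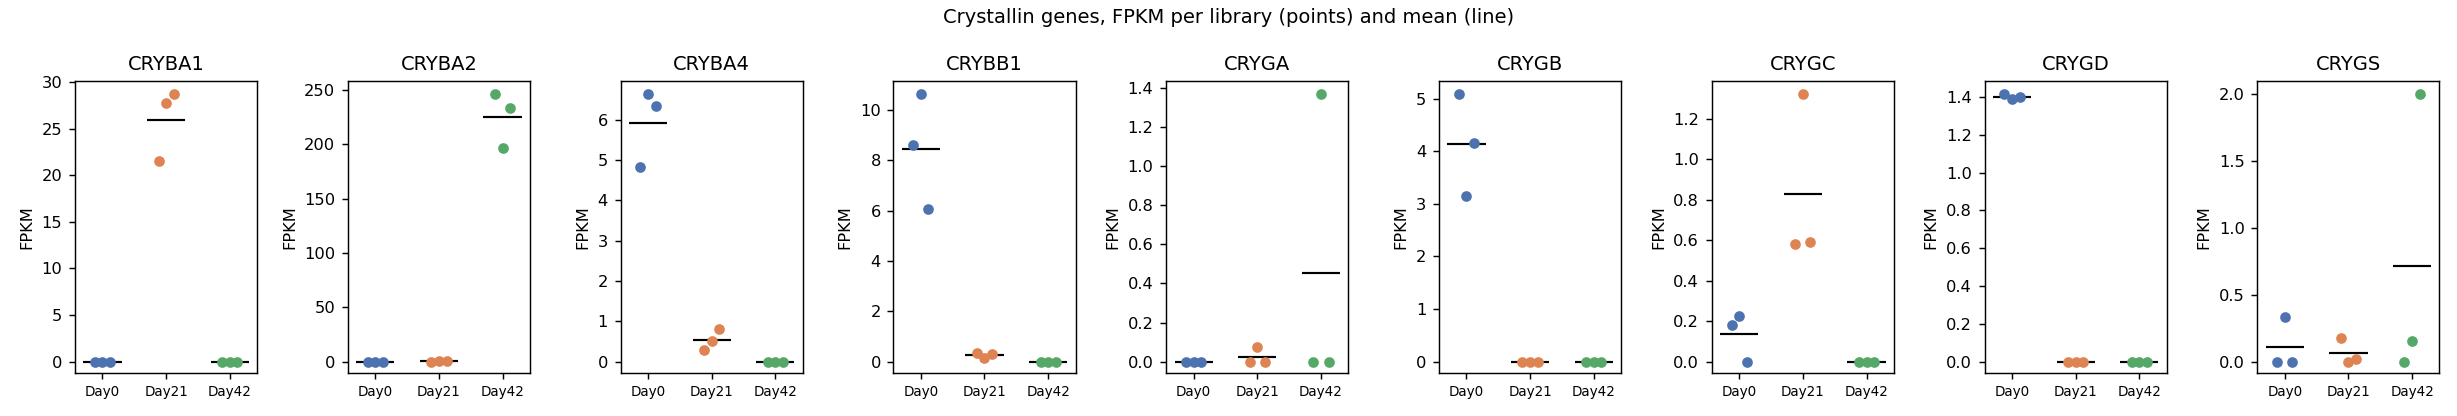
FPKM (vertical axes, each on its own scale) of 9 crystallin genes in the 3 libraries of each day, with the mean as a line. CRYBA1 is above 0 on Day21 alone, CRYBA2 reaches 225 FPKM on average on Day42, and CRYBA4 and CRYBB1 are highest on Day0.

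PLSCR1, a relative of PLSCR5 and its neighbour on chromosome 3, averaged 4.99, 6.37 and 0.563 FPKM on Day0, Day21 and Day42 and was not called (adjusted p = 0.99 on Day21 against Day0 and 0.053 on Day42 against Day21). For 31 members, 46 tested genes lay next to them within 100000 bases. By edgeR, 0 of these were called higher and 0 lower on Day21 than on Day0, against 1.32% and 1.18% of all genes. DESeq2 called 1 higher and 4 lower, and 1158 and 1290 of all genes. At an unadjusted p under 0.05 in edgeR, 5 were higher and 4 lower. No share over all genes is given for that threshold, so nothing is read from it. The fit of only these 2 days called 8 higher and 5 lower (17.4% and 10.9%), against 13% and 12.6% of all genes. On Day42 against Day21, 1 was called higher and 9 lower (2.17% and 19.6%), against 6.52% and 19.7% of all genes. Beside the protein-coding members, 13 noncoding or unclassified genes met the same thresholds, among them TP53TG1, MIR3659HG and LHX5-AS1.

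RefSeq promoter windows were found for 22 of the 36 members, 28 windows in all, and were searched on both strands for 8 short motifs. Shares are of windows, and a member can have more than 1. TATAAA occurred in 3 windows of members (CRYBA1, CYP26A1 and SST), 10.7%, against 11.5% of all 35116 windows. GTGGGAA occurred in 3 (HES1, EVA1B and TMEM190), 10.7%, against 6.25%, and TGACTCA in 2 (CRABP1 and NME1-NME2), 7.14%, against 4.95%. AGGTCA, the other retinoid half-site, occurred in 2 (IGFBP2 and ZFP36L1), 7.14%, against 13.8%, and AGTTCA in 1, of CYP26A1, 3.57%, against 10.4%. The E-box CACCTG occurred in 5 windows of 4 members, 17.9%, against 20.6%, and CAGCTG in 2, 7.14%, against 17.9%. TAATTA, a homeobox core, occurred in 1, of GNG11, 3.57%, against 4.84%. Median GC content was 59.2% in the windows of members and 58.7% in all windows, and the ratio of observed to expected CpG was 0.682 and 0.579. A match is a description of the letters, not a binding site.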

How the data were processed

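Counts and FPKM of 34961 genes in 9 libraries were deposited by the authors in 1 table; the units are given per the file headers, and the values show raw counts as whole numbers with different sums per library. Libraries were made from about 10 ng of total RNA with a kit for low input, per the labels' protocols. Per the submitters' processing notes, cutadapt 1.9, FastQC and GRCh38 are named without a role; no aligner, counter, strand setting or annotation is named (not given in the sources used here).

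Members were chosen on the deposited FPKM. The members, the gene lists (28) and the tests were chosen with earlier results of these data known, and family relatives and motifs after the members were known. Counts were fitted with edgeR 4.0.16 in R 4.3.3 (filterByExpr, TMM, 1 mean per day, 6 residual and 2.42 prior degrees of freedom), over 20156 genes. DESeq2 1.42.0 and limma 3.58.1 on log2(FPKM + 1) were alternatives; code ran in Python 3.11.15. On simulated counts with changed genes the fit was tested before use. Counts pile up at multiples of 4 (a count of 4 was 2.17 times as frequent as its neighbours), so the limit that 0 allows was set at 3 steps, 12 counts per library; it covers counting error only. Named genes were the 3 markers, the most abundant members on Day21, those with the largest ratio, those called between Day42 and Day0, list members and the genes next to the thresholds; members and relatives outside this rule were named after their values were seen. Exon overlaps were read from GENCODE release 29, in which all 36 members were found: 4 overlap another gene on the same strand and 14 on the other. Deviations of same-numbered libraries from their day means correlated at -0.225 to 0.0266. Libraries of different numbers were not compared in this way, so whether the numbers pair libraries was not tested. The main fit took the libraries as unpaired. A few genes, members among them, are not reported by name here and are not drawn; they stay in the fits and in all counts.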

Additional observations from a re-analysis of the deposited data

How the results depend on the processing

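The number of members was 36 on deposited FPKM, 43 on TPM (24 shared), 52 on TMM-scaled FPKM (33 shared) and 38 to 48 without any 1 library. Leaving out a library can only add genes under this rule, so keeping all 36 each time was fixed in advance. For the 13 members called between Day42 and Day0, 189 of 220 values kept their call, 31 lost it and 0 changed direction; ZFP36L1 lost it under 10 of 17 alternatives, IGDCC3 under 11, GAMT and IGFBP5 under 3 each, EVA1B under 2, SST and TFF3 under 1 each. Counts of members called higher and lower, 3 and 10 by edgeR, were 1 and 6 with only the 2 days compared, 3 and 10 by DESeq2, and 3 to 4 and 8 to 12 without 1 library. The replicate number added as a block gave 3 and 9. Between FPKM and TMM scaling, log2 changes shifted by 0.704 for Day42 against Day0, by 0.649 for Day42 against Day21 and by 0.0546 for Day21 against Day0.

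Over all genes, higher and lower calls for Day42 against Day0 were 1778 and 4721; the replicate block gave 1051 and 2659, and lower calls were 2079 by limma on log2(FPKM + 1), 2178 with 0.1 added and 1927 with no filter. Without 1 library they were 1072 to 3220 and 3545 to 5664. For Day21 against Day0, 266 and 238 became 1158 and 1290 by DESeq2, 2550 and 2459 with only the 2 days, 76 and 33 with the replicate block, 616 and 700 by limma, 674 and 651 with 0.1 added, and 530 and 653 with no filter; without 1 library they were 91 to 1434 and 42 to 1460. For Day42 against Day21, 1315 and 3980 became 617 and 1803 with the replicate block, 2110 and 1759 by limma, and 2164 and 1896 with 0.1 added, with 1535 lower with no filter; without 1 library they were 621 to 2416 and 2680 to 5046. The cause was not tested. Depth limits members at 0 to under 12 counts per library.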

Other observations

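Noncoding and unclassified genes that met the thresholds of the set numbered 13, and their values are given as a description, since the same Day21 levels chose them. LHX5-AS1, an antisense transcript at the homeobox gene LHX5, had 0 FPKM in the Day0 libraries, 28.4, 47.9 and 59.6 FPKM in the Day21 libraries and 2.64, 0.528 and 0 FPKM in the Day42 libraries. AL359091, a long noncoding RNA on chromosome 9, had 0, 0 and 0.0498 FPKM in the Day0 libraries, 25.4, 32.1 and 32.9 FPKM in the Day21 libraries and 0, 0.0370 and 0 FPKM in the Day42 libraries, and was thus near 0 on both other days. TP53TG1 had 1.55, 1.98 and 1.51 FPKM in the Day0 libraries, 13.7, 16.8 and 16.9 FPKM in the Day21 libraries and 2.20, 2.24 and 3.44 FPKM in the Day42 libraries, and kept a higher level on Day42 than most of the 13. AC011270, which overlaps CRABP1 on the other strand, had 6.94, 6.08 and 8.90 FPKM in the Day0 libraries, 54.2, 62.8 and 51.3 FPKM in the Day21 libraries and 2.38, 1.75 and 2.29 FPKM in the Day42 libraries; without a stated strand setting its reads and those of CRABP1 cannot be told apart. Both LHX5-AS1 and AL359091 were highest in Day21 replicate 3.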
